A study of Homo sapiens with 17 samples.

Results

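Class I molecules of the major histocompatibility complex show peptides from inside a cell to cytotoxic T cells and natural killer cells, and 9 genes of this presentation pathway were followed across prostate cancer cells in which CREB1 or FOXA1 had been knocked down. The genes are HLA-B, HLA-C, HLA-E and HLA-F (heavy chains), B2M (the light chain), TAP1 and TAP2 (the peptide transporter), TAPBP (tapasin, which holds the transporter and an empty class I molecule together) and PSMB9 (a catalytic subunit of the immunoproteasome, which cuts peptides). The rule that picks them goes by symbol, but the members were chosen with earlier results of these data known. Counts of members that rose or fell are therefore descriptive. All 9 were among the 23230 genes of the count tables, and all 9 were among the 15550 genes that passed the filter on low counts.

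The cells were LNCaP, an established human prostate cancer line that depends on androgen, and LNCaP-abl (abl), its subline, which no longer needs androgen. LNCaP was grown in 10% serum and used at passages 32 to 34, and abl was grown in 10% serum stripped of steroid hormones with charcoal and used at passages 62 to 64. Each line was treated for 3 days in 5% charcoal-stripped serum with 40 nM of siRNA, either a control (siControl), one that targets CREB1 (siCREB1) or one that targets FOXA1 (siFOXA1). This gives 6 groups of 2 libraries each, and abl against LNCaP compares 2 lines that also differ in passage and growth medium. CREB1 is the transcription factor that binds cyclic-AMP response elements (CRE), and FOXA1 is a pioneer factor of luminal prostate cells. The labels do not say whether the 2 libraries of a group are separate cultures, so p-values here measure only the spread between these libraries, which may be technical.

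In the class I pathway, the proteasome cuts proteins into peptides, TAP1 and TAP2 pump the peptides into the endoplasmic reticulum, and tapasin and chaperones load them onto a heavy chain paired with B2M. The immunoproteasome subunits PSMB8, PSMB9 and PSMB10 replace the constitutive catalytic subunits when cells meet interferon. The promoters of classical class I genes carry an interferon element and a set of boxes bound by RFX, CREB/ATF and NF-Y proteins, on which the co-activator NLRC5 assembles. IRF1 and NF-kappaB are further known activators of the pathway.

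Stretches of the promoters are shown to place such elements, and of those marked only the CRE core TGACG is a site of CREB/ATF proteins. The stretches are RefSeq sequences of GRCh38.p14, read 5′ to 3′ on the strand of the gene and upstream of its annotated start. Capitals mark matches, on either strand, to an interferon-stimulated response element (TTTCNNTTTC), its class I variant (TTTCNNTTCT), the NF-kappaB consensus, the CRE core TGACG and the CCAAT box, and matches can overlap. The stretches lie at chr6:31357225-31357362 (minus strand) for HLA-B, chr6:31272138-31272290 (minus) for HLA-C, chr6:29723272-29723387 (plus) for HLA-F and chr15:44711367-44711478 (plus) for B2M. Those of the loading genes lie at chr6:32853761-32853954 (minus) for TAP1, chr6:32838764-32838803 (minus) for TAP2 and chr6:33314079-33314140 (minus) for TAPBP.
HLA-B: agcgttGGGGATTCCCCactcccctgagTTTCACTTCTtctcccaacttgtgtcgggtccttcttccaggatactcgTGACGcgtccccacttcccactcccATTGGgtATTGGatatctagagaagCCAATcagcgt
HLA-C: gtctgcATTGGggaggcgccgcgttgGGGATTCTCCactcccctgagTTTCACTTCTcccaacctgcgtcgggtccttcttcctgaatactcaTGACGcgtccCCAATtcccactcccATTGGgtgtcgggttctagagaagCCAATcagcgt
HLA-F: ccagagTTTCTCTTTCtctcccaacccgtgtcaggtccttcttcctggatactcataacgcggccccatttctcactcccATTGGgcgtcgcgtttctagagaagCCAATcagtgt
B2M: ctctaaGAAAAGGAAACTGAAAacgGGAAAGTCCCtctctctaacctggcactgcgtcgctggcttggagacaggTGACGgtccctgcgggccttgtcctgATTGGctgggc
TAP1: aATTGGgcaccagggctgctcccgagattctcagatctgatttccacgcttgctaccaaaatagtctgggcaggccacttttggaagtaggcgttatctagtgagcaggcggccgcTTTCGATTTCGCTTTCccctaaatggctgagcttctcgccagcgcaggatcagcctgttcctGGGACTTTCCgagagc
TAP2: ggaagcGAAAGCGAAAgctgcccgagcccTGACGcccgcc
TAPBP: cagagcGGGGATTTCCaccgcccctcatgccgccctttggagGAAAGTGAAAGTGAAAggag

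A window was found for 8 of the 9 genes, and HLA-E had none in the table used. Over the 250 bases upstream of the start, TTTCNNTTTC stood in the windows of 5 of the 8 genes (HLA-F, B2M, TAP1, TAP2 and TAPBP), against 3.02% of 35116 windows of all genes. The variant TTTCNNTTCT stood in those of HLA-B and HLA-C, against 2.45% of all windows. The NF-kappaB consensus was matched in HLA-B, HLA-C, B2M, TAP1 and TAPBP, against 9.96% of all windows. TGACG stood in HLA-B, HLA-C, B2M, TAP2 and PSMB9, against 21.2% of all windows, and the full CRE TGACGTCA stood in none of the 8, against 1.65%. The CCAAT box was matched in 6 of the 8, against 32.0% of all windows. The windows of TAP1 and PSMB9 overlap, and their CCAAT matches are the same site read on opposite strands. Those of HLA-B and HLA-C share 30.4% of the 8-base words found in either, so their matches are not independent. In HLA-B the TGACG core starts 106 bases before the start and in HLA-C 105 bases before it, and CCAAT boxes on 1 strand or the other lie between it and the start in both. These are matches of letters, and binding at them was not measured here.

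Apart from B2M, which lies on chromosome 15 (chr15:44711517-44718145), all of these genes lie in the major histocompatibility complex on chromosome 6 of GRCh38.p14. HLA-F (chr6:29723434-29738532), HLA-E (chr6:30489509-30494194), HLA-C (chr6:31268749-31272092) and HLA-B (chr6:31353875-31357179) are heavy chain genes. TAP2 (chr6:32821831-32838739), TAP1 (chr6:32845209-32853704), PSMB9 (chr6:32854192-32859851) and TAPBP (chr6:33299694-33314078) follow. TAP1 and PSMB9 face away from each other, with 488 bases between their annotated starts. The heavy chain genes are near copies of each other and of further class I genes, and they vary between people, so reads can be shared between copies or lost against the reference. The values of HLA-B, HLA-C, HLA-E and HLA-F are therefore uncertain as values of single genes.

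Reads assigned to genes ranged from 9092597 to 37314039 per library, and the shallowest was the second siControl library of abl. Levels are given as CPM, counts scaled to the size and composition of the library, and since CPM is not divided by transcript length, no level is compared between genes. The threshold for a call was an adjusted p below 0.05 in edgeR's quasi-likelihood test, and ± after a log2 change is its standard error (SE). The targeted genes fell in their own knockdowns: CREB1 fell by 1.28 ± 0.10 on the log2 scale in LNCaP and by 0.81 ± 0.10 in abl, and FOXA1 fell by 1.81 ± 0.09 and by 1.32 ± 0.08. siFOXA1 lowered CREB1 as well: it fell by 0.44 ± 0.09 in each line. All 10 luminal prostate markers had counts in every library, with a summed level of 2402 to 4021 CPM. The 17 markers of leukocytes, which carry much class I, summed to 13.5 and 14.1 CPM in the first siControl library of abl and of LNCaP and to 5.13 to 8.36 CPM in the other 10 libraries. Fibroblast markers summed to 59.7 to 99.0 CPM in LNCaP and 11.2 to 22.1 CPM in abl, most of it COL1A1, while COL1A2 had no count. Endothelial markers summed to at most 31.5 CPM and basal markers to at most 1.10 CPM. In bulk RNA, fewer cells of a type and less RNA per cell cannot be told apart.

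**Figure D1:**
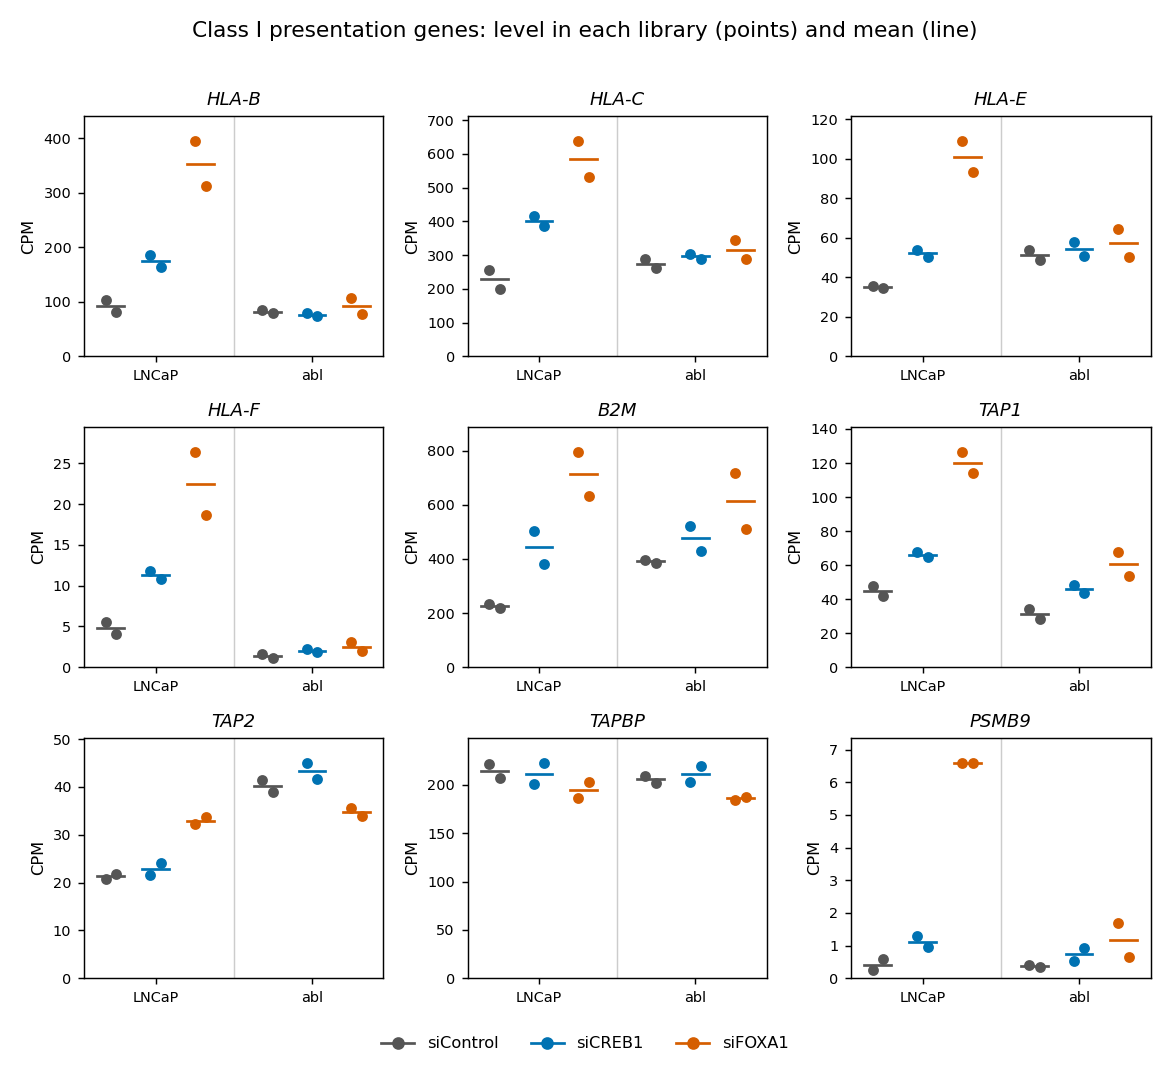
Level of the 9 class I presentation genes in each of the 12 libraries, in CPM on a linear axis that starts at 0. Points are single libraries, lines are means of 2 libraries, and colours give the siRNA. In LNCaP the siFOXA1 libraries are the highest for every gene but TAPBP, while in abl the groups of HLA-B, HLA-C and HLA-E lie close together.

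In LNCaP, both knockdowns raised most of the presentation genes. After siFOXA1, 8 of 9 rose and none fell, against 24.4% of all tested genes that rose and 25.5% that fell, and their median log2 change was 1.52 against -0.01 over all tested genes. After siCREB1, 7 of 9 rose and none fell, against 17.8% and 19.8% of all tested genes, with a median of 0.81 against -0.00. Both knockdowns of a line are compared with the same 2 siControl libraries, so the 2 counts are not independent. Within each count the heavy chains may not stand for separate genes, since reads can be shared between them.

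The heavy chains were among the genes that rose under both siRNAs in LNCaP. HLA-B, a classical heavy chain that presents peptides to T cells, stood at 102.5 and 81.2 CPM with siControl, 185.8 and 164.7 with siCREB1, and 394.2 and 311.9 with siFOXA1. The 3 groups did not overlap. The log2 change was 0.93 ± 0.14 for siCREB1 (adjusted p = 0.000243 in edgeR) and 1.94 ± 0.15 for siFOXA1 (adjusted p = 1.72e-07), which put HLA-B at 191% and 384% of its siControl level. HLA-C, the second classical heavy chain, stood at 256.9 and 200.5 CPM, then 414.8 and 387.7, then 637.4 and 530.4, again with no overlap between the groups. It rose by 0.81 ± 0.12 (adjusted p = 0.000141) and 1.35 ± 0.12 (adjusted p = 7.15e-07).

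The non-classical heavy chains moved the same way. HLA-E, the ligand of the inhibitory receptor NKG2A on natural killer cells, stood at 35.8 and 34.7 CPM with siControl, 54.1 and 50.3 with siCREB1 and 108.9 and 93.3 with siFOXA1. It rose by 0.57 ± 0.11 (adjusted p = 0.00168) and 1.52 ± 0.11 (adjusted p = 1.56e-07), and its siFOXA1 libraries lay well above all others. HLA-F, a non-classical heavy chain, stood at 5.60 and 4.10 CPM, then 11.9 and 10.8, then 26.3 and 18.6. Its counts ran from 64 to 625 per library, and it rose by 1.19 ± 0.21 (adjusted p = 0.000632) and 2.17 ± 0.20 (adjusted p = 1.21e-06).

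B2M, the light chain that pairs with the heavy chains, stood at 232.4 and 217.4 CPM with siControl in LNCaP, 504.0 and 382.3 with siCREB1, and 793.8 and 632.5 with siFOXA1. The libraries of the 3 groups did not overlap, although those within each knockdown group lay far apart. B2M rose by 0.98 ± 0.16 (adjusted p = 0.000377) and 1.66 ± 0.16 (adjusted p = 1.96e-06).

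The loading genes were less uniform. TAP1 stood at 47.7 and 41.7 CPM with siControl in LNCaP, 67.6 and 64.8 with siCREB1, and 126.3 and 114.2 with siFOXA1, and it rose by 0.56 ± 0.11 (adjusted p = 0.00152) and 1.42 ± 0.11 (adjusted p = 2.43e-07). TAP2, the partner of TAP1 in the transporter, stood at 20.8 and 21.8 CPM, then 21.5 and 24.2, then 32.3 and 33.7. Its siControl and siCREB1 libraries overlapped, with a log2 change of 0.10 ± 0.08 (adjusted p = 0.371), while its siFOXA1 libraries were above all 4 of them and the change was 0.63 ± 0.08 (adjusted p = 2.99e-05). TAPBP was the 1 gene of the 9 that passed no test in LNCaP: it stood at 221.6 and 207.2 CPM, 201.2 and 222.4, and 186.9 and 203.1, with log2 changes of -0.02 ± 0.07 (adjusted p = 0.862) and -0.14 ± 0.07 (adjusted p = 0.118).

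PSMB9 had the largest change of the 9 and the fewest counts. In LNCaP it had 7 and 9 counts with siControl (0.25 and 0.58 CPM), 35 and 26 with siCREB1 (1.29 and 0.95 CPM), and 156 and 172 with siFOXA1 (6.58 CPM in both libraries). The siFOXA1 libraries were thus far above the rest, and the log2 change was 4.12 ± 0.39 (adjusted p = 1.53e-06). The rise with siCREB1 was 1.57 ± 0.51 (adjusted p = 0.0259). Without the first siControl library of LNCaP it was 0.97 (adjusted p = 0.255), and without the first siCREB1 library it was 1.36 (adjusted p = 0.13), so this call rests on few counts.

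The 2 siRNAs could also be compared with each other in LNCaP. Levels were lower with siCREB1 than with siFOXA1 for 8 of 9 genes, all but TAPBP, and higher for none, against 22.5% of tested genes that were lower and 20.6% that were higher. The differences ran from a log2 value of -0.53 ± 0.08 for TAP2 (adjusted p = 0.000116) and -0.54 ± 0.12 for HLA-C (adjusted p = 0.00177) to -2.55 ± 0.30 for PSMB9 (adjusted p = 1.27e-05). The order siControl, siCREB1, siFOXA1 therefore held with both steps past the test for HLA-B, HLA-C, HLA-E, HLA-F, B2M, TAP1 and PSMB9. For TAP2 only the step to siFOXA1 passed. Leaving out the second siCREB1 library put the B2M difference, -0.69 ± 0.16 with all libraries, at -0.50 with an adjusted p of 0.0508.

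**Figure D2:**
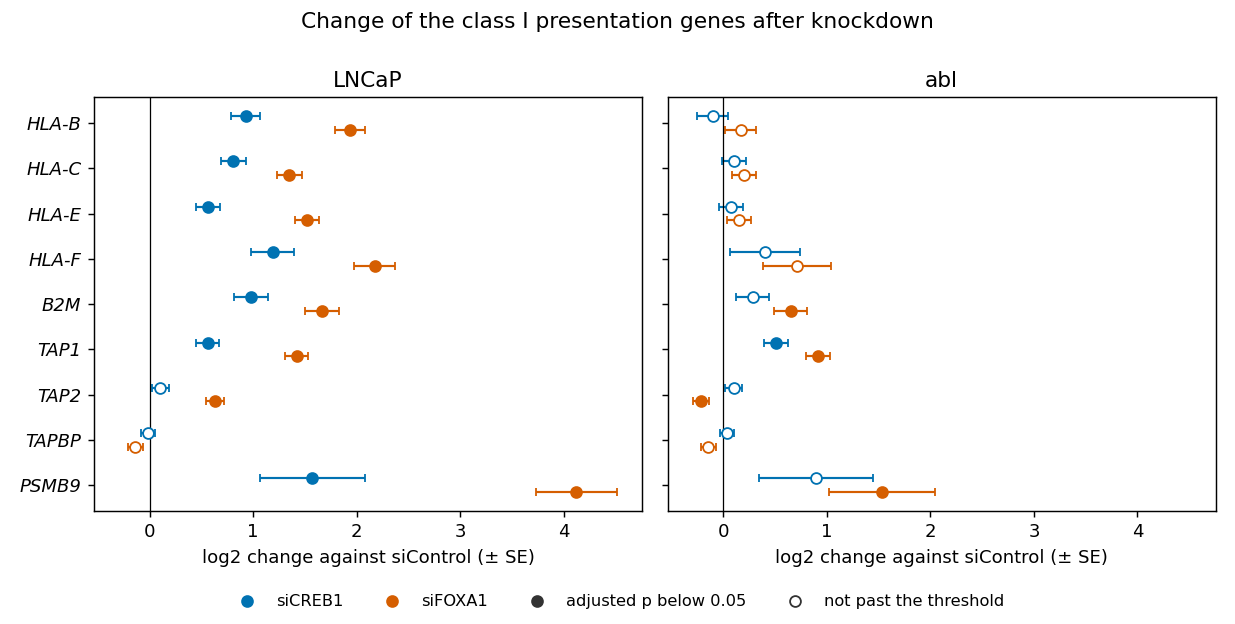
Log2 change of each gene against siControl in LNCaP (left) and abl (right), with bars of 1 SE and 2 libraries per group. Filled points passed an adjusted p of 0.05 in edgeR. In LNCaP all points but those of TAPBP and the siCREB1 point of TAP2 are filled, and in abl 5 of 18 are.

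In abl, few of the genes changed. After siFOXA1, 3 of 9 rose (B2M, TAP1 and PSMB9) and 1 fell (TAP2), against 29.9% and 26.5% of all tested genes, with a median log2 change of 0.20 against 0.03 over all tested genes. After siCREB1, 1 of 9 rose (TAP1) and none fell, against 27.5% and 23.7%, with a median of 0.11 against 0.03. Both shares of genes that rose are near or below the share over all tested genes.

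In the fit as reported, no heavy chain passed in abl. HLA-B stood at 84.6 and 78.8 CPM with siControl, 78.5 and 74.2 with siCREB1, and 106.7 and 77.5 with siFOXA1, so the siFOXA1 libraries enclosed the siControl ones. Its log2 changes were -0.10 ± 0.15 (adjusted p = 0.592) and 0.17 ± 0.15 (adjusted p = 0.365). HLA-C stood at 289.2 and 261.1 CPM, then 303.9 and 289.5, then 344.4 and 288.6, with changes of 0.11 ± 0.12 and 0.20 ± 0.12 (adjusted p = 0.482 and 0.168). HLA-E stood at 53.6 and 48.6 CPM, then 58.0 and 50.8, then 64.4 and 50.3, and its groups overlapped, with changes of 0.08 ± 0.11 and 0.15 ± 0.11 (adjusted p = 0.611 and 0.273). HLA-F was low in abl, with 60 and 10 counts with siControl, 50 and 45 with siCREB1 and 67 and 46 with siFOXA1. Its levels were 1.67 and 1.11 CPM, 2.25 and 1.82, and 3.08 and 1.99, and the changes of 0.40 ± 0.34 (adjusted p = 0.346) and 0.71 ± 0.33 (adjusted p = 0.0772) did not pass. The siFOXA1 change of HLA-F did pass in DESeq2 (0.73, adjusted p = 0.0432) and without the low-count filter (0.71, adjusted p = 0.0316). With a term for the library number in the edgeR fit (a replicate block), HLA-C (0.20, adjusted p = 0.0278) and HLA-F (0.81, adjusted p = 0.00571) passed after siFOXA1.

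The siFOXA1 libraries of abl differed most for these genes, the first being the higher. Without the first, HLA-B changed by -0.08 and HLA-E by -0.03, on the other side of 0 from the values with both. Without the second, the changes of HLA-B (0.39, adjusted p = 0.0426), HLA-E (0.33, adjusted p = 0.0265) and HLA-F (1.01, adjusted p = 0.0313) passed the threshold. For HLA-B, HLA-E and HLA-F, whether siFOXA1 passes in abl thus depends on which library is used, and for HLA-F also on the tool and the filter. For HLA-C and HLA-F it depends on the replicate block as well.

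TAP1 rose under both siRNAs in abl. It stood at 34.4 and 28.6 CPM with siControl, 48.2 and 43.5 with siCREB1, and 67.7 and 53.7 with siFOXA1, with no overlap between the groups. The changes were 0.51 ± 0.12 (adjusted p = 0.00271) and 0.91 ± 0.12 (adjusted p = 1.54e-05), and both stayed past the threshold in all 11 alternative analyses, over which they ran from 0.41 to 0.69 and from 0.74 to 1.09.

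B2M in abl stood at 397.5 and 384.4 CPM with siControl, 522.7 and 430.4 with siCREB1, and 718.3 and 508.8 with siFOXA1. Each knockdown library was above both siControl libraries, and the siFOXA1 change of 0.65 ± 0.16 passed (adjusted p = 0.00315) while the siCREB1 change of 0.28 ± 0.16 did not (adjusted p = 0.155). The B2M change after siCREB1 passed without the low-count filter (0.30, adjusted p = 0.037) and in a fit of only the groups compared (0.27, adjusted p = 0.0169). Without the first siFOXA1 library the B2M change was 0.39 (adjusted p = 0.0632). PSMB9 in abl had 15 and 3 counts with siControl, 12 and 23 with siCREB1, and 37 and 15 with siFOXA1, or 0.42 and 0.33, 0.54 and 0.93, and 1.70 and 0.65 CPM. It rose by 1.53 ± 0.51 after siFOXA1 (adjusted p = 0.0198), against 0.89 ± 0.55 after siCREB1 (adjusted p = 0.198). That call was lost without the first siFOXA1 library (0.70, adjusted p = 0.326) and without the first siControl library (1.79, adjusted p = 0.146).

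TAP2 in abl stood at 41.4 and 38.9 CPM with siControl, 44.9 and 41.6 with siCREB1, and 35.6 and 33.9 with siFOXA1. It fell by 0.22 ± 0.08 on the log2 scale after siFOXA1 (adjusted p = 0.0337), while the siCREB1 change was 0.10 ± 0.08 (adjusted p = 0.326). The fall was not past the threshold without the first siControl library (-0.15, adjusted p = 0.287), without either siFOXA1 library (-0.25 and -0.17, adjusted p = 0.0654 and 0.201) or in DESeq2 (-0.23, adjusted p = 0.0668). TAPBP in abl stood at 209.5 and 202.0, 203.0 and 219.4, and 184.6 and 188.0 CPM, with changes of 0.04 ± 0.07 and -0.15 ± 0.07 (adjusted p = 0.703 and 0.0951), the second of which passed in a fit of only the groups compared (-0.16, adjusted p = 0.0317). Between the siRNAs in abl, TAP2 was higher with siCREB1 than with siFOXA1 (0.32 ± 0.08, adjusted p = 0.00534) and TAP1 was lower (-0.41 ± 0.11, adjusted p = 0.00998). These 2 of 9 stand against 41.0% of tested genes that differed in either direction. TAP2 lost its call without the first siCREB1 library (0.26, adjusted p = 0.0652) or the second siFOXA1 library (0.27, adjusted p = 0.0559). TAP1 lost its call without the second siCREB1 library (-0.33, adjusted p = 0.101) or the first siFOXA1 library (-0.23, adjusted p = 0.167).

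To ask whether the lines differ in their response, the knockdown effect in abl minus that in LNCaP was tested. For siFOXA1, the effect was smaller in abl for 8 of 9 genes, all but TAPBP, and larger for none, against 14.7% and 17.9% of all tested genes. For siCREB1 it was smaller for 4 of 9 (HLA-B, HLA-C, HLA-E and B2M) and larger for none, against 10.8% and 14.8%. The median difference over the 9 genes was -1.15 for siFOXA1 and -0.68 for siCREB1, and 0.05 over all tested genes for each. The targeted genes themselves also fell less in abl. The log2 change of CREB1 after siCREB1 was -0.81 in abl and -1.28 in LNCaP, and that of FOXA1 after siFOXA1 was -1.32 and -1.81. A smaller effect in abl thus comes with a weaker knockdown there, and the part of this was not tested.

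For siFOXA1 the differences on the log2 scale were -1.77 ± 0.21 for HLA-B (adjusted p = 2.33e-05), -1.15 ± 0.17 for HLA-C (adjusted p = 0.000135), -1.36 ± 0.16 for HLA-E (adjusted p = 2.46e-05) and -1.46 ± 0.39 for HLA-F (adjusted p = 0.0115). Each of the 4 heavy chains thus rose less in abl than in LNCaP or did not pass there. B2M differed by -1.01 ± 0.23 (adjusted p = 0.00343), TAP1 by -0.51 ± 0.16 (adjusted p = 0.0269), TAP2 by -0.85 ± 0.12 (adjusted p = 8.78e-05) and PSMB9 by -2.59 ± 0.75 (adjusted p = 0.0164). In the fit as reported TAP2 rose in LNCaP and fell in abl, a fall lost in DESeq2 and without the low-count filter. TAP1 rose in both lines, by less in abl. The line differences of TAP1, HLA-F and PSMB9 did not hold without single libraries. Without the first siControl library of abl, TAP1 was at -0.35, HLA-F at -1.01 and PSMB9 at -2.35.

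For siCREB1 the differences were -1.03 ± 0.21 for HLA-B (adjusted p = 0.00247), -0.70 ± 0.17 for HLA-C (adjusted p = 0.00683), -0.49 ± 0.16 for HLA-E (adjusted p = 0.0395) and -0.69 ± 0.23 for B2M (adjusted p = 0.0371). Those of HLA-E and B2M did not hold without single libraries, with values up to -0.41 and -0.50. The B2M difference was also lost in DESeq2 with all libraries (-0.73, adjusted p = 0.0801). The 2 first siControl libraries, which have the higher leukocyte marker sums, were also left out together. Only the second siControl library of each line then remained, and fewer of all tested genes were called as well. A lost call alone therefore does not show a changed effect. Without these 2 libraries, 5 of 9 genes (HLA-B, HLA-C, HLA-E, B2M and TAP2) kept the siFOXA1 line difference and 2 (HLA-B and HLA-C) the siCREB1 one. HLA-F was then at -1.29 (adjusted p = 0.252), TAP1 at -0.46 (adjusted p = 0.119) and PSMB9 at -1.73 (adjusted p = 0.413). The counts of 7 and 8 genes that rose in LNCaP became 6 and 8. The part of the leukocyte markers in these results was not tested further.

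**Figure D3:**
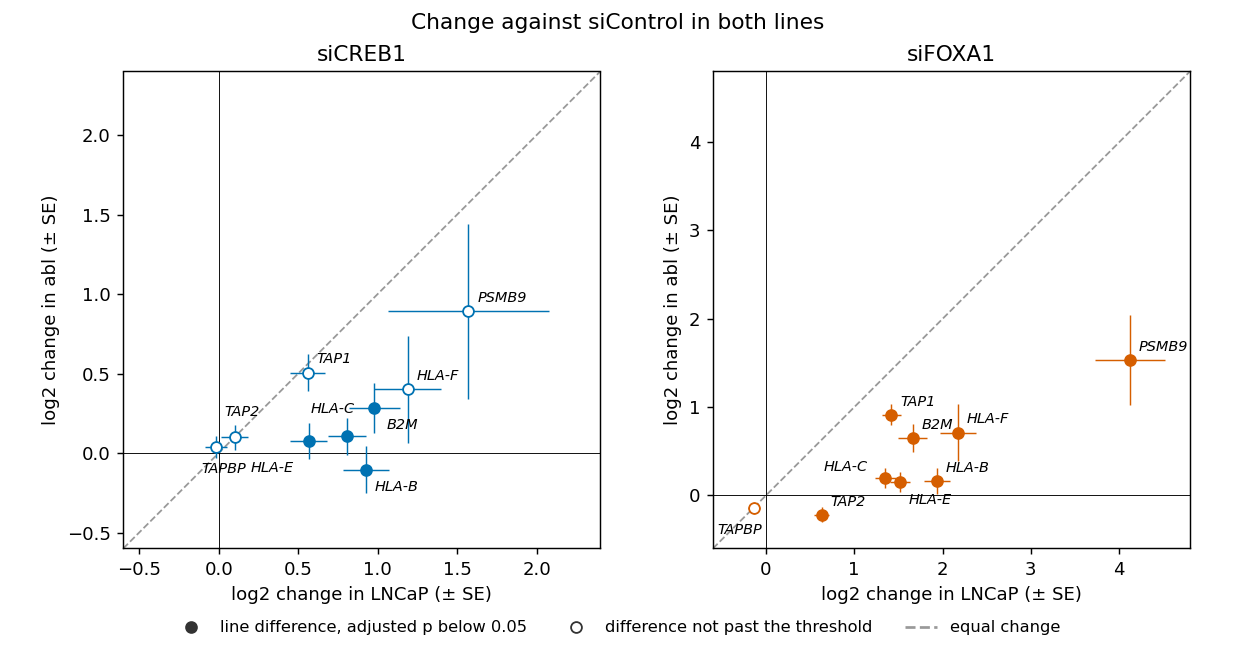
Log2 change against siControl in LNCaP (horizontal axis) and in abl (vertical axis) for siCREB1 (left) and siFOXA1 (right), with bars of 1 SE. The dashed line marks equal change, and filled points passed the test of the difference between the lines. All filled points, 4 for siCREB1 and 8 for siFOXA1, lie below the line.

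Under siControl alone, the lines differed in 5 of the 9 genes. In abl, 3 were higher (B2M, HLA-E and TAP2) and 2 lower (HLA-F and TAP1), against 30.5% and 33.1% of all tested genes. TAP2 was at 188% of the LNCaP level (0.92 ± 0.08, adjusted p = 3.35e-07), B2M at 174% (0.80 ± 0.16, adjusted p = 0.000624) and HLA-E at 145% (0.55 ± 0.12, adjusted p = 0.00101). HLA-F was at 28.7% (-1.69 ± 0.29, adjusted p = 0.000168) and TAP1 at 70.6% (-0.48 ± 0.12, adjusted p = 0.00302). The other 4 gave log2 differences of -0.17 ± 0.15 (HLA-B), 0.27 ± 0.12 (HLA-C, adjusted p = 0.063), -0.06 ± 0.07 (TAPBP) and 0.09 ± 0.65 (PSMB9). HLA-C was close to the threshold: its difference passed in 6 of 11 alternative analyses, over which it ran from 0.10 to 0.48. It passed in DESeq2 (0.29, adjusted p = 0.0246), with upper quartile scaling (0.27, adjusted p = 0.0465), without the low-count filter (0.26, adjusted p = 0.0226) and without the first siControl library of LNCaP (0.48, adjusted p = 0.00321). TAP1 and TAP2, which work as 1 transporter, thus stood on opposite sides of the LNCaP level in abl.

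Over the 12 libraries, HLA-C followed the mean of the other members most closely, with Pearson's r of 0.97 on log2 CPM. The values were 0.92 for PSMB9, 0.91 for HLA-E, 0.87 for HLA-B and TAP1, 0.70 for B2M, 0.68 for HLA-F, -0.04 for TAP2 and -0.47 for TAPBP. These describe 12 libraries of 6 groups and share the groups' differences, so they carry no test. For a heavy chain, the mean also holds the other heavy chains, with which its reads can be shared. Among tested genes whose log2 CPM averaged at least 3, the 6 patterns most like the mean of the 9 genes included those of FLJ36031 (r = 0.96), ZNFX1 (0.95), RAD51C (0.95), GPR158 (0.93) and GRAMD1C (0.92).

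The regulators of class I genes were read from a list of 15. After siFOXA1 in LNCaP, 4 rose and 2 fell, against 24.4% and 25.5% of all tested genes. After siCREB1 there, 3 rose and 4 fell, against 17.8% and 19.8%. In abl, 5 rose and 5 fell after siFOXA1 (against 29.9% and 26.5%), and 4 rose and 4 fell after siCREB1 (against 27.5% and 23.7%). For a list of 15, these counts are near the shares over all tested genes. CREB1, itself a target, is among the regulators that fell in each of the 4 comparisons.

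NLRC5, the class I co-activator, rose in all 4 comparisons. In LNCaP it stood at 7.62 and 9.67 CPM with siControl, 21.5 and 19.7 with siCREB1, and 49.6 and 49.4 with siFOXA1, with changes of 1.28 ± 0.17 (adjusted p = 8.45e-05) and 2.54 ± 0.17 (adjusted p = 4.9e-08). In abl it read 7.72 and 9.70 CPM, next 18.0 and 16.9, and last 35.5 and 23.8, with changes of 1.07 ± 0.18 (adjusted p = 0.000261) and 1.83 ± 0.18 (adjusted p = 1.05e-06). No groups of a line overlapped. The siFOXA1 effect was smaller in abl by 0.71 ± 0.25 (-0.71 on the log2 scale, adjusted p = 0.0411), and for siCREB1 the difference of -0.21 ± 0.26 did not pass (adjusted p = 0.593). NLRC5 thus rose in abl with siCREB1 while the 4 heavy chains passed no test there.

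IRF1, an interferon-induced activator of class I promoters, moved in opposite directions in the lines. In LNCaP it stood at 7.80 and 7.82 CPM with siControl, 10.3 and 10.3 with siCREB1 and 12.6 and 11.7 with siFOXA1, and it rose by 0.40 ± 0.14 (adjusted p = 0.0336) and 0.64 ± 0.14 (adjusted p = 0.00141). In abl it read 21.7 and 22.1 CPM, next 16.9 and 14.1, and last 12.1 and 9.38, and it fell by 0.50 ± 0.12 (adjusted p = 0.00376) and by 1.03 ± 0.13 (adjusted p = 1.04e-05). The line differences were -0.90 ± 0.18 (adjusted p = 0.00273) and -1.66 ± 0.19 (adjusted p = 1.61e-05). The siCREB1 rise in LNCaP lost its call when any 1 of the 4 libraries was left out (adjusted p from 0.0755 to 0.101), and the siCREB1 fall in abl without the second siCREB1 library (-0.36, adjusted p = 0.0629).

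IRF2, a relative of IRF1 that binds the same element, rose after siFOXA1 in both lines, from 16.0 and 18.1 to 34.4 and 35.8 CPM in LNCaP (1.05 ± 0.10, adjusted p = 2.03e-06) and from 15.9 and 12.4 to 25.7 and 25.2 CPM in abl (0.79 ± 0.11, adjusted p = 2.69e-05). The RFX complex, which binds the first of the class I boxes, moved in parts. RFX5 rose in abl by 0.82 ± 0.07 and 0.83 ± 0.07 (adjusted p = 3.01e-07 and 1.62e-07), from 76.3 and 71.2 CPM with siControl to between 125.9 and 137.1 CPM in the 4 knockdown libraries. In LNCaP it fell by 0.19 ± 0.06 after siCREB1 (adjusted p = 0.0335), a call that was lost in DESeq2 (-0.17, adjusted p = 0.0833) and without each single library. Its partner RFXAP fell in abl by 1.02 ± 0.15 and by 1.11 ± 0.16 (adjusted p = 9.06e-05 and 3.79e-05). RFXANK, the third subunit, rose in abl by 0.38 ± 0.08 and 0.33 ± 0.08 (adjusted p = 0.000925 and 0.00235). ATF1, the closest relative of CREB1, fell by 0.95 ± 0.11 in abl and by 0.44 ± 0.11 in LNCaP after siCREB1 (adjusted p = 9.06e-06 and 0.00795). It also fell by 0.40 ± 0.11 in abl after siFOXA1 (adjusted p = 0.00668), a call lost without the second siControl library (-0.28, adjusted p = 0.0606), and was at 0.06 ± 0.11 in LNCaP (adjusted p = 0.667). The ATF1 call in LNCaP was lost without the second siControl or the second siCREB1 library (adjusted p = 0.0617 and 0.107).

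The NF-kappaB and NF-Y subunits made smaller moves. RELA, a subunit of NF-kappaB, fell after siFOXA1 by 0.40 ± 0.06 in abl (adjusted p = 3.77e-05), from 114.2 and 111.6 to 85.9 and 85.3 CPM, and by 0.21 ± 0.06 in LNCaP (adjusted p = 0.00788). The RELA call in LNCaP was lost without the first siFOXA1 library (-0.14, adjusted p = 0.133). NFKB1, its partner, rose by 0.28 ± 0.07 in abl after siCREB1 (adjusted p = 0.00405), a call lost without the first siCREB1 library (0.20, adjusted p = 0.0619). NFYA, a subunit of NF-Y, fell by 0.45 ± 0.07 in LNCaP after siCREB1 (adjusted p = 0.000195), from 89.5 and 83.6 to 61.3 and 65.5 CPM.

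Among 17 other genes of peptide supply and loading, 8 rose and 8 fell in LNCaP after siFOXA1, against 24.4% and 25.5% of all tested genes. After siCREB1 there, 8 rose and 5 fell, against 17.8% and 19.8%. In abl, 4 rose and 8 fell after siFOXA1 (against 29.9% and 26.5%), and 7 rose and 7 fell after siCREB1 (against 27.5% and 23.7%). The list as a whole did not move 1 way, and its median log2 change lay between -0.08 and -0.02 in the 4 comparisons.

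The immunoproteasome partners of PSMB9 were among those that rose. PSMB8, whose gene lies between TAP1 and TAP2, had 47 and 27 counts in LNCaP with siControl, 104 and 81 with siCREB1 and 226 and 239 with siFOXA1, and rose by 0.99 ± 0.28 (adjusted p = 0.0139) and 2.44 ± 0.26 (adjusted p = 3.83e-06). The siCREB1 call was lost without the first siControl library (0.99, adjusted p = 0.0623) or the first siCREB1 library (0.81, adjusted p = 0.105). In abl it had at most 13 counts in any library and passed no test. PSMB10 rose in all 4 comparisons, by 0.78 ± 0.09 and 1.31 ± 0.09 in LNCaP and by 0.72 ± 0.09 and 1.397 ± 0.09 in abl, from 16.4 and 15.9 CPM and from 21.5 and 19.7 CPM with siControl. PSME2, a subunit of the interferon-induced proteasome activator PA28, rose by 0.63 ± 0.06 and 1.38 ± 0.06 in LNCaP and by 1.07 ± 0.06 and 1.78 ± 0.06 in abl. For PSME2 the effect was larger in abl, by 0.44 ± 0.09 for siCREB1 and 0.40 ± 0.09 for siFOXA1 (adjusted p = 0.00273 and 0.00358), the opposite direction to that of the heavy chains.

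TAPBPL, a relative of tapasin that edits the peptides of class I molecules, stood at 8.52 and 7.75 CPM in LNCaP with siControl, 15.9 and 16.6 with siCREB1 and 21.2 and 20.04 with siFOXA1. It rose by 0.99 ± 0.11 and 1.33 ± 0.11 (adjusted p = 2.28e-05 and 5.39e-07), whereas TAPBP itself passed no test. In abl the 6 libraries of TAPBPL lay between 21.0 and 25.7 CPM, with changes of -0.07 ± 0.10 and -0.02 ± 0.10, and both line differences passed (-1.05 ± 0.15, adjusted p = 0.000261, and -1.35 ± 0.15, adjusted p = 1.85e-05). HSPA5, the main chaperone of the endoplasmic reticulum, fell by 1.31 ± 0.08 and by 1.65 ± 0.08 in abl, and by 0.39 ± 0.08 and by 0.26 ± 0.08 in LNCaP. The siFOXA1 fall in LNCaP was lost without the first siControl library (-0.19, adjusted p = 0.139) and without either siFOXA1 library (-0.26 and -0.21, adjusted p = 0.0694 and 0.134). THOP1, a peptidase that destroys peptides in the cytosol, rose by 1.01 ± 0.10 in abl after siCREB1 (adjusted p = 1.33e-06).

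The constitutive subunits that the immunoproteasome replaces are PSMB5, PSMB6 and PSMB7. After siFOXA1, 3 of 3 rose in abl, by 0.31 to 0.46, and 1 of 3 rose in LNCaP (PSMB6, 0.27 ± 0.07, adjusted p = 0.00576). After siCREB1, 2 of 3 rose in abl and none changed in LNCaP. Of all tested genes, 29.9% rose in abl and 24.4% in LNCaP after siFOXA1, and 27.5% and 17.8% after siCREB1.

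**Figure D4:**
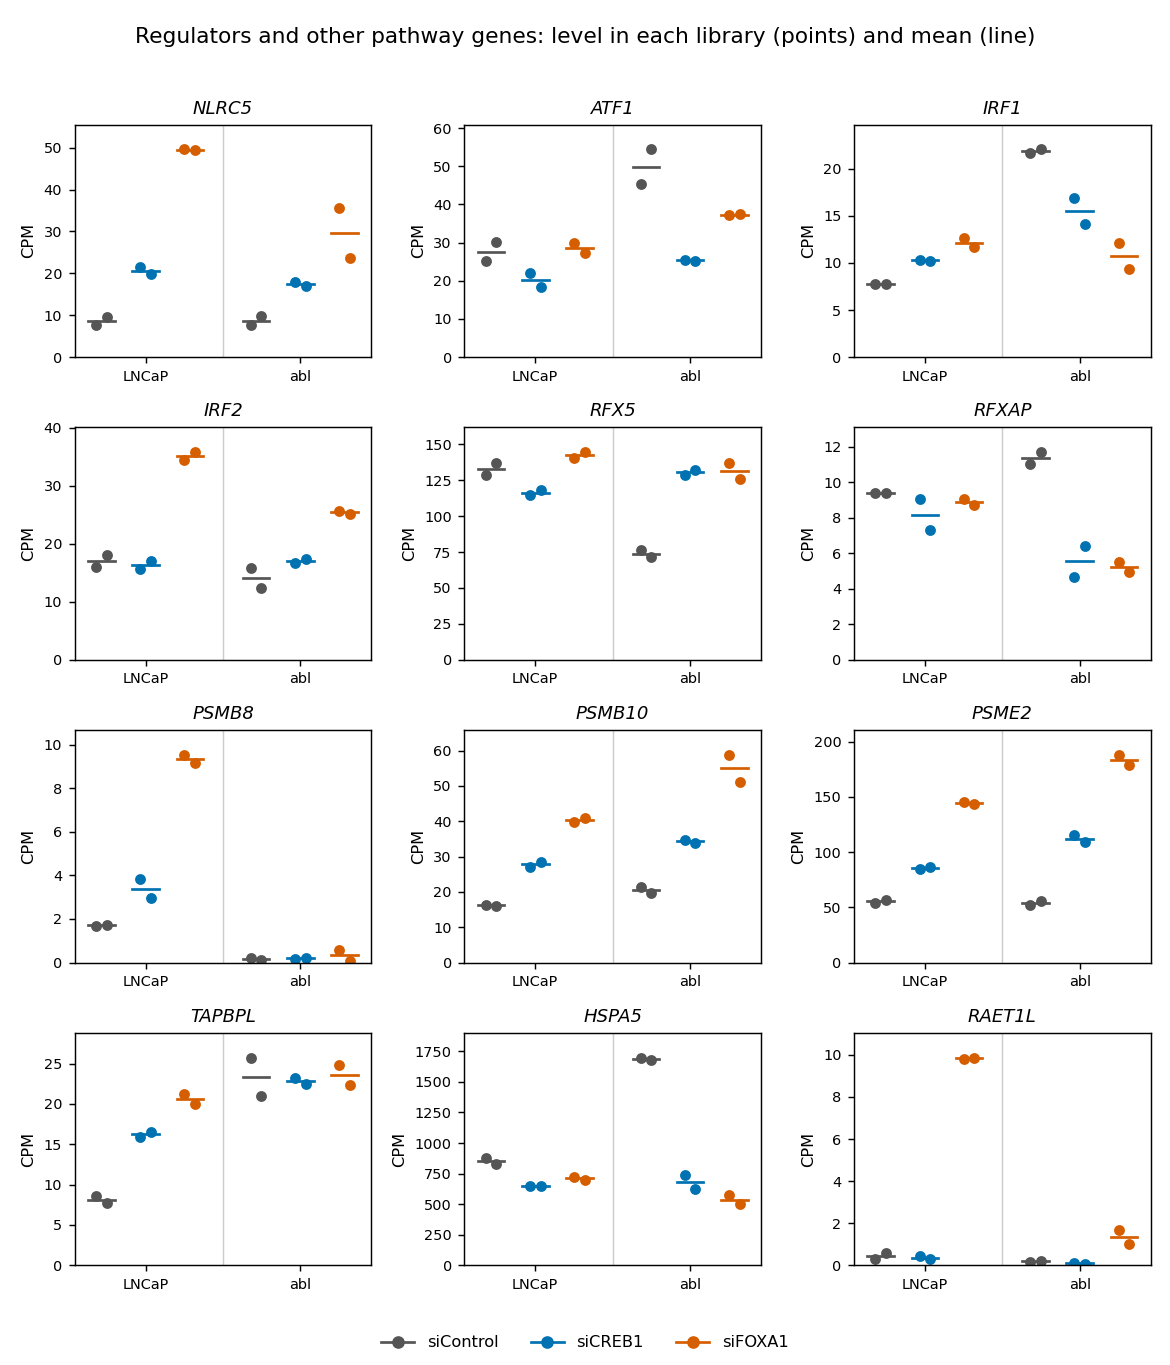
Level of 12 regulators and other genes linked to the pathway in each of the 12 libraries, in CPM on linear axes that start at 0, drawn as points with a line at the mean of 2 libraries. NLRC5, PSMB10 and PSME2 step up from siControl to siCREB1 to siFOXA1 in both lines, and IRF1 steps up in LNCaP and down in abl.

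Of 13 class I-like genes, 10 passed the filter on low counts. After siFOXA1, 5 rose and 2 fell in LNCaP, against 24.4% and 25.5% of all tested genes, and 2 rose and 2 fell in abl, against 29.9% and 26.5%. After siCREB1, 1 rose and 1 fell in LNCaP (against 17.8% and 19.8%), and 1 rose and 3 fell in abl (against 27.5% and 23.7%). RAET1L, a ligand of the natural killer receptor NKG2D, had 8 and 9 counts in LNCaP with siControl, 12 and 8 with siCREB1 and 233 and 258 with siFOXA1, a rise of 4.62 ± 0.28 (adjusted p = 2.28e-08). In abl it went from 6 and 2 to 36 and 23 counts after siFOXA1 (2.85 ± 0.45, adjusted p = 0.000106). Other NKG2D ligands moved differently: MICA rose in all 4 comparisons, by 0.32 to 1.26, and ULBP1 fell in abl by 1.92 ± 0.13 and by 2.30 ± 0.14 and was at -0.13 ± 0.13 and -0.10 ± 0.13 in LNCaP. ULBP2, a relative of ULBP1, fell after siCREB1 in both lines, from 6.68 and 8.84 to 2.58 and 3.43 CPM in LNCaP (-1.34 ± 0.19, adjusted p = 0.000139) and from 6.28 and 4.68 to 2.61 and 2.07 CPM in abl (-1.31 ± 0.22, adjusted p = 0.000187). After siFOXA1 the ULBP2 changes of 0.22 ± 0.17 and -0.27 ± 0.20 did not pass (adjusted p = 0.303 and 0.259). The siCREB1 call of MICA in LNCaP (0.33) was lost without the first siControl or the second siCREB1 library (adjusted p = 0.0578 and 0.0951), and its siFOXA1 call (0.32) without the first siFOXA1 library (adjusted p = 0.0591). HLA-G, a non-classical heavy chain, had 215 and 13 counts in the siFOXA1 libraries of LNCaP against 3 and 2 with siControl, so its fitted rise of 5.29 ± 1.21 rests mostly on 1 library. FCGRT, the heavy chain of the neonatal Fc receptor, which also pairs with B2M, went from 87 and 49 to 11 and 22 counts in LNCaP after siFOXA1 and fell by 2.24 ± 0.37 (adjusted p = 0.000198).

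Class II molecules present peptides to helper T cells. Of 12 class II genes, 7 passed the filter, and after siFOXA1 2 rose and 1 fell in LNCaP and 0 rose and 1 fell in abl. After siCREB1, 1 fell in LNCaP and none was called in abl. Of all tested genes, 24.4% rose and 25.5% fell in LNCaP after siFOXA1, and 17.8% and 19.8% after siCREB1. In abl these shares were 29.9% and 26.5% after siFOXA1, and 27.5% and 23.7% after siCREB1. HLA-DRA went from 33 and 14 counts to 105 and 72 in LNCaP after siFOXA1 (1.73 ± 0.33, adjusted p = 0.00059). HLA-DRB1, which pairs with HLA-DRA, went from 4 and 5 to 19 and 20 counts there (1.87 ± 0.63, adjusted p = 0.0234). The HLA-DRB1 call was lost in DESeq2 (1.81, adjusted p = 0.208), without the first siControl library (1.30, adjusted p = 0.204) and without either siFOXA1 library (adjusted p = 0.0796 and 0.0674). HLA-DPA1 went from 37 and 22 to 15 and 21 counts in LNCaP after siCREB1, a fall of 1.04 ± 0.37 (-1.04 on the log2 scale, adjusted p = 0.039) that was lost in DESeq2 (-1.03, adjusted p = 0.11) and without each of the 4 libraries in turn (adjusted p from 0.0727 to 0.218). HLA-DMB, which loads class II molecules, fell by 2.16 ± 0.17 in LNCaP and by 0.99 ± 0.23 in abl after siFOXA1 (adjusted p = 3.33e-07 and 0.00186). CIITA, the class II counterpart of NLRC5, had at most 12 counts in any library.

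The authors' deposited tables list 7 of the 9 presentation genes as changed in LNCaP after siCREB1 and 8 of 9 after siFOXA1, and all 7 and all 8 were called here. For abl the authors' deposited tables list 2 after siCREB1 (B2M and TAP1) and 4 after siFOXA1 (HLA-F, B2M, TAP1 and PSMB9). B2M after siCREB1 (0.29 in the authors' deposited table) and HLA-F after siFOXA1 (0.74 in the authors' deposited table) are listed there and were not called here, while TAP2 after siFOXA1 was called here and is not listed there. In all, the authors list 4593 (siCREB1) and 6778 (siFOXA1) genes for LNCaP, and 7997 and 8708 for abl. The counts cover 23230 genes. Both sets of calls come from the same libraries, so they are not independent.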

How the data were processed

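The authors deposited raw counts of reads per gene. The submitters' processing notes name the build hg19 and the tools HTSeq 0.5.3p9, TopHat2 2.0.8 with Bowtie2 2.1.0, and CASAVA 1.8. Which annotation and strand setting the counting used is not given in the sources used here, and per the labels' protocols the library kit does not mark strand. The authors' deposited tables of changed genes give log2 fold changes and p-values, tied to edgeR 3.0.6 by the processing notes. Columns headed SIC were taken to be siControl, and their 8 repeats were identical and used once.

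From the counts, lines naming no gene were left out (54.8% to 58.3% no feature and 0.77% to 0.92% ambiguous reads per library). All 12 libraries entered 1 fit in edgeR 4.0.16 (R 4.3.3) with filterByExpr, TMM scaling and the quasi-likelihood test (6 residual degrees of freedom, common biological coefficient of variation 0.062). P-values were adjusted by Benjamini-Hochberg over 15550 genes. The SE is the absolute log2 change over the square root of F and is approximate at low counts. The members, gene lists, tests and alternatives were chosen with earlier results of these data known.

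Genes named are the 9 members, CREB1 and FOXA1, called regulators, the 3 called genes of each other list with the largest change per knockdown, and the 6 nearest patterns, except that values of a gene that falls under these rules are not reported here. CIITA, COL1A1 and COL1A2 were named after their values were seen. Alternatives were other scalings, DESeq2 1.42.0, no low-count filter beyond 1 count, only the groups compared, a replicate block, and leaving out each library or both first siControl libraries. Promoter windows and positions are from RefSeq, GRCh38.p14. Of 17 samples, the 11 ChIP-seq samples were not analysed here.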

Additional observations from a re-analysis of the deposited data

Results flagged for a closer look

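The knockdown effect differed between the lines for 12 member results, tested in edgeR as the effect in abl minus that in LNCaP with 2 libraries per group, and every one of the 12 was negative. Of all tested genes, 14.7% were called negative for siFOXA1 and 10.8% for siCREB1. Both siRNAs share the siControl libraries, and heavy chains can share reads, so the 12 results are not independent. The targeted genes also fell less in abl, and the part of this was not tested. For siFOXA1 the values on the log2 scale were -1.77 for HLA-B (adjusted p = 2.33e-05), -1.15 for HLA-C (adjusted p = 0.000135), -1.36 for HLA-E (adjusted p = 2.46e-05), -1.46 for HLA-F (adjusted p = 0.0115), -1.01 for B2M (adjusted p = 0.00343), -0.51 for TAP1 (adjusted p = 0.0269), -0.85 for TAP2 (adjusted p = 8.78e-05) and -2.59 for PSMB9 (adjusted p = 0.0164). For siCREB1 they were -1.03 for HLA-B (adjusted p = 0.00247), -0.70 for HLA-C (adjusted p = 0.00683), -0.49 for HLA-E (adjusted p = 0.0395) and -0.69 for B2M (adjusted p = 0.0371). Those of HLA-E and B2M for siCREB1 and of HLA-F, TAP1 and PSMB9 for siFOXA1 did not pass without both first siControl libraries, nor without that of abl alone.

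Among regulators, IRF1 differed by -0.90 for siCREB1 and -1.66 for siFOXA1 (adjusted p = 0.00273 and 1.61e-05) and NLRC5 by -0.71 for siFOXA1 (adjusted p = 0.0411). RFX5 differed in the other direction, by 1.01 and 0.72 (adjusted p = 5.22e-06 and 4.77e-05). Among loading genes, TAPBPL differed by -1.05 and -1.35 (adjusted p = 0.000261 and 1.85e-05), HSPA5 by -0.92 and -1.39 (adjusted p = 6.79e-05 and 1.07e-06) and PSME2 by 0.44 and 0.40 (adjusted p = 0.00273 and 0.00358).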

How the results depend on the processing

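Of 555 alternative values of the 47 called member results, 513 kept their call and sign, 42 lost the call with the same sign and 0 changed sign. The counts of members that rose in LNCaP stayed within 1.5 times under every alternative run. For siFOXA1 in abl, the count that rose was 3, and 5 with the replicate block and 1 to 6 with single libraries left out. The count that fell was 1, and 0 in DESeq2, without the low-count filter and without both first siControl libraries, 2 with only the groups compared, and 0 to 1 with single libraries left out. For siCREB1 in abl, the count that rose was 1, and 2 without the filter, with the replicate block and with only the groups compared. Smaller effects in abl numbered 4 for siCREB1 and 8 for siFOXA1, and 2 and 5 without both first siControl libraries, with ranges of 2 to 4 and 5 to 8 over single libraries left out. For siCREB1 against siFOXA1 in abl, the count higher was 1, and 2 with upper quartile scaling, the replicate block or only the groups compared, and 0 to 1 over single libraries. The count lower was 1, and 2 without the filter, 3 with the replicate block and 0 to 4 over single libraries.

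The library numbers were not taken to pair the samples, since deviations of same-numbered libraries from their group means correlated over 0.1 in only 3 of 15 pairs of groups (-0.05 to 0.23 over genes). With the replicate block, calls were gained for HLA-C and HLA-F after siFOXA1 in abl (0.20 and 0.81, adjusted p = 0.0278 and 0.00571), B2M after siCREB1 in abl (0.28, adjusted p = 0.0213) and HLA-C between the lines (0.27, adjusted p = 0.0046). Yet the first library was above the second in all 6 groups for 6 members (HLA-B, HLA-C, HLA-E, HLA-F, B2M and TAP1), as for 3.19% of tested genes, and the cause was not tested.

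The values that changed sign were all uncalled in the analysis as reported and in that alternative. For TAPBP after siCREB1 in LNCaP, -0.02 as reported, they were 0.0020 with DESeq2 size factors, 0.0018 in DESeq2 and 0.053 without both first siControl libraries, and -0.074 to 0.077 over single libraries. For PSMB9 between the lines, 0.09 as reported, the value was -0.76 without both first siControl libraries and -0.50 to 0.65 over single libraries. Over single libraries left out, the ranges were -0.11 to 0.014 for TAPBP and -0.32 to 0.038 for HLA-B between the lines, -0.010 to 0.097 for TAPBP and -0.016 to 0.18 for HLA-E after siCREB1 in abl, and -0.077 to 0.39 for HLA-B and -0.029 to 0.33 for HLA-E after siFOXA1 in abl.

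The planned count of binding peaks near the members was not run, since no annotation of the build of the peak lists was used here. The 9092597 reads of the second abl siControl library limit what can be seen of HLA-F (10 counts there) and PSMB9 (3 counts). Where a library is left out, the lone library of its group is assumed to vary like the other groups.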
